A study of Mus musculus with 2 samples.

Results

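Fatty acid oxidation and ketone body synthesis were followed through 8 transcripts in single cells of the murine retinal pigment epithelium (RPE), the pigmented monolayer behind the photoreceptors. The genes were selected by symbol, with no value as a criterion, and with earlier results of these data known, and each of the 8 had a row among the 27998 listed genes of both deposited matrices. RPE cells of both eyes of each of 2 male C57BL/6J mice, R1 and R2, were released with trypsin, dispersed, sorted as viable (calcein-positive, DAPI-negative) and profiled on the 10x Genomics droplet platform. The mice were at postnatal day 36 (4 to 5 weeks old on the labels), and there was a single condition without treatment, transgene or mutation. The assay tags every captured mRNA molecule with a unique molecular identifier (UMI) before amplification, and UMIs rather than reads are counted.

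Fatty acids enter mitochondria as carnitine esters. CPT1A, on the outer membrane, makes these esters and CPT2, on the inner membrane, turns them back into acyl-CoA. Chain shortening then starts with acyl-CoA dehydrogenases, among them the long-chain enzyme encoded by Acadl and the medium-chain enzyme encoded by Acadm, and for long chains continues in the mitochondrial trifunctional protein, whose alpha and beta subunits are encoded by Hadha and Hadhb. The acetyl-CoA so formed can be turned into ketone bodies, in a route that ends with BDH1, which converts acetoacetate into beta-hydroxybutyrate. PPARA is a nuclear receptor that binds fatty acids and turns on many of these genes in liver. RPE cells take up lipid-rich tips of photoreceptor outer segments every day, and are known to oxidise their fatty acids and to pass beta-hydroxybutyrate to the retina.

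R1 held 2844 deposited cells with 26034378 UMIs and R2 held 2994 cells with 29732969 UMIs. After cells with fewer than 500 genes, cells with more than 5% mitochondrial UMIs and likely doublets had been left out, 2671 and 2847 cells remained. Of the 14-base cell barcodes, 12 occurred in both mice. Cells were divided by the share of their UMIs from Ttr, which encodes transthyretin and is among the most abundant transcripts of the RPE. At least 5% of UMIs were Ttr in 2612 cells of R1 and 2828 of R2, with a median depth of 8416.5 and 7687 UMIs. Under 3% were Ttr in 59 and 19 cells, with 3200 and 3836 UMIs, and no kept cell lay between these limits. All cells of the Ttr-high class had 3 or more of 8 RPE markers, whose summed level was 451 and 515 per 10000 UMIs other than Ttr. In the Ttr-low class this level was 35.6 and 24.5, and 49 of 59 and 13 of 19 cells had 3 or more of these markers. RNA free in the droplets can also give UMIs of such abundant transcripts. Its part in the RPE marker level of Ttr-low cells was not tested. The 8 markers of the small population that the study named C1, which include Pax6 and Dkk3, stood at 182 and 163 in Ttr-low and at 7.57 and 5.78 in Ttr-high cells, and 3 or more of them were found in 55 of 59 and 17 of 19 Ttr-low cells and, at the greater depth of that class, in 39.0% and 26.0% of Ttr-high cells.

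Hadha and Hadhb lie head to head on chromosome 5 (GRCm38, GENCODE: Hadha, chr5:30118304-30155162, minus strand; Hadhb, chr5:30155248-30184593, plus strand), and their RefSeq start sites are 273 bases apart. Most of the interval between the start sites is shown because both subunits of the trifunctional protein are transcribed away from it, and the upstream windows of Cpt1a and Acadm are shown because they alone among the members matched the nuclear receptor hexamer AGGTCA, searched on both strands. All 8 members had a RefSeq window. The sequences are RefSeq's (GRCm38.p6), 250 bases directly upstream of the start site, read 5′ to 3′ on the strand of the gene. Capitals mark the hexamer, which reads TGACCT here because it lies on the opposite strand. The Hadhb window is chr5:30155003-30155252, that of Cpt1a chr19:3323051-3323300 and that of Acadm chr3:153944644-153944893. GENCODE starts differ from RefSeq's. GENCODE starts Hadha at 30155162, within the printed Hadhb window. It starts Cpt1a at 3322334, so the Cpt1a window and its marked hexamer lie within the gene as GENCODE annotates it.
Hadhb: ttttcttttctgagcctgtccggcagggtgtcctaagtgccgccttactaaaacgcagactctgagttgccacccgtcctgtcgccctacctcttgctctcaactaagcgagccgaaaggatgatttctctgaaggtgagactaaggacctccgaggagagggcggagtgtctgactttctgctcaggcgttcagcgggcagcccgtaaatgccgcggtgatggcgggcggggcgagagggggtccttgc
Cpt1a: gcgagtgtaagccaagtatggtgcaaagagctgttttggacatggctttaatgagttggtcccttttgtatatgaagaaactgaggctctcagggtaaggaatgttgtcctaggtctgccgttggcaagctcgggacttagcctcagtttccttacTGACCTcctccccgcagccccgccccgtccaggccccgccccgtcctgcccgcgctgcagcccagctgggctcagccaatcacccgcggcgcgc
Acadm: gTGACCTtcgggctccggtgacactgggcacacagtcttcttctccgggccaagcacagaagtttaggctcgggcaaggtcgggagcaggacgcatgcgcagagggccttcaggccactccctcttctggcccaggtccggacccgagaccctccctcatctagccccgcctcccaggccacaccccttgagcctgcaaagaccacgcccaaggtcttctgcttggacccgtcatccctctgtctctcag
The match began 94 bases upstream of the start site in Cpt1a and 249 bases upstream in Acadm. It occurred in 14% of 32851 RefSeq windows of the same length. The full motif DR1, a direct repeat of this hexamer with any 1 base between the copies, was found in 0.0335% of windows and in none of the members. A match is a run of letters and not a bound site, and the absence of a match says only that the letters are not in this window.

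Within the Ttr-high class, Acadl was the most abundant member and Ppara the least. Acadl reached 1.32 UMIs per 10000 UMIs in R1 (95% interval 1.28 to 1.37, 3116 UMIs) and 1.46 in R2 (1.413 to 1.505, 3921 UMIs). Hadhb followed with 1.18 and 1.19, from 2776 and 3198 UMIs. These levels placed Acadl above 93.7% and 94.2% of the genes detected in this class and Hadhb above 92.8% and 93.0%. Levels are not divided by transcript length, since the assay captures a single 3′ end per molecule, but the efficiency of capture can still differ between genes. Intervals here cover counting error only.

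Cpt1a, Cpt2, Acadm and Hadha occupied a narrow band beneath them. Hadha was at 0.748 and 0.695 UMIs per 10000, Cpt1a at 0.656 and 0.645, Acadm at 0.600 and 0.634 and Cpt2 at 0.550 and 0.577. Every neighbour in the order Acadl, Hadhb, Hadha, Cpt1a, Acadm, Cpt2, Bdh1, Ppara was separated from the next by an exact interval of the ratio above 1 in both mice, except Cpt1a and Acadm in R2, where the ratio was 1.02 (0.952 to 1.09). The subunits of the trifunctional protein were unequal, with 1.57 UMIs of Hadhb for each UMI of Hadha in R1 (1.48 to 1.67) and 1.71 in R2 (1.62 to 1.81). Acadl exceeded Acadm 2.202-fold (2.07 to 2.35) and 2.30-fold (2.17 to 2.44). The muscle carnitine palmitoyltransferase Cpt1b had 0 UMIs in both mice, against 1548 and 1735 of Cpt1a, the liver form. The 3′ end of Hadha overlaps that of Garem2 on the other strand and Bdh1 overlaps an annotated antisense transcript, and whether strand was used in counting is not given in the sources used here.

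Bdh1 and Ppara were rare transcripts. Bdh1 had 277 UMIs in R1 and 233 in R2, or 0.117 (0.104 to 0.132) and 0.0867 (0.0759 to 0.0985) per 10000. The summed level of the 8 members was 5.19 and 5.30 per 10000.

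Ppara had 46 and 43 UMIs, or 0.0195 and 0.0160 per 10000. Its paralog Ppard had 5.17 and 5.30 times as many UMIs. For comparison, 8 rod photoreceptor markers, which RPE cells are not known to express, together gave 224 and 84 UMIs in the same cells. The level of Ppara was therefore in the range that RNA free in the droplets can give, and it is not read as expression here.

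**Figure D1:**
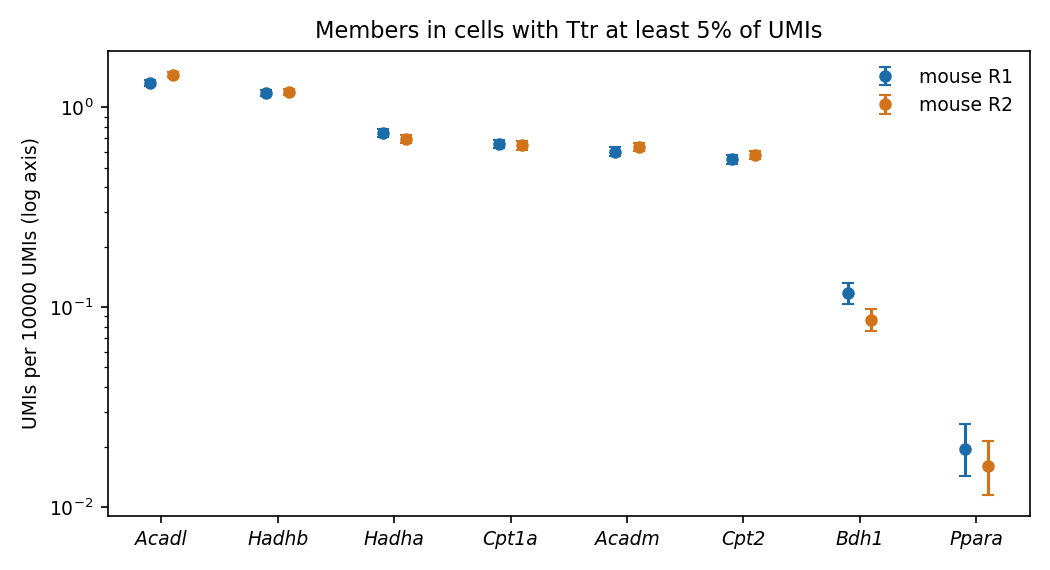
UMIs of each of the 8 members per 10000 UMIs, summed over cells with Ttr at least 5% of UMIs, on a log axis, for mouse R1 (2612 cells, blue) and mouse R2 (2828 cells, orange). Bars are exact 95% Poisson intervals. Acadl (1.32 and 1.46) lies highest, 4 members lie between 0.550 and 0.748, and Bdh1 and Ppara lie far below.

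Agreement between the mice was close for most members. The R2 to R1 ratio was 0.983 for Cpt1a (0.918 to 1.05), 1.01 for Hadhb (0.960 to 1.06), 1.05 for Cpt2 (0.974 to 1.13) and 1.06 for Acadm (0.984 to 1.13). Acadl was higher in R2, at 1.10 (1.05 to 1.16), whereas Hadha was lower, at 0.929 (0.870 to 0.992). Bdh1 differed most clearly, at 0.738 (0.617 to 0.882). With 1 library per mouse these differences cannot be told apart from differences between libraries.

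At least 1 UMI of Hadhb was found in 53.3% of Ttr-high cells of R1 (51.4 to 55.2) and 49.5% of R2 (47.6 to 51.3), and of Acadl in 53.2% and 51.8%. Hadha was found in 38.9% and 33.7%, and Cpt1a, Acadm and Cpt2 in 28.8% to 33.4%. Bdh1 was found in 8.00% (6.99 to 9.11) and 5.52% (4.70 to 6.42), and Ppara in 1.26% and 1.03%. Any of the 8 was found in 91.0% and 88.0% of cells, with a median of 4 UMIs of the members per cell in both mice and a maximum of 36 and 44. These shares depend on depth. When each cell was thinned to 2000 UMIs other than Ttr, the shares were 21.8% and 21.3% for Hadhb and 63.5% and 64.3% for any member, with 31 cells of R1 and 0 of R2 too shallow to enter. No cell type in these libraries is known to lack the 6 enzymes of oxidation, so a background share could not be read for them.

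Among Ttr-high cells, the summed level of the members stayed between 5.24 and 6.48 across groups of depth, mitochondrial share and Ttr share, with the lowest value in the shallowest cells of R1. From the shallowest to the deepest of 4 equal groups of cells, it was 5.24, 5.80, 5.92 and 5.99 UMIs per 10000 UMIs other than Ttr in R1 and 6.14, 6.05, 5.98 and 6.14 in R2. From cells with Ttr at 5 to 10% of UMIs to cells with 15% or more, it was 6.08, 5.79 and 5.45 in R1 and 6.38, 6.09 and 5.84 in R2. Between the lowest and the highest of 4 equal groups by mitochondrial share, Hadhb was 1.42 and 1.11 in R1 and 1.49 and 1.16 in R2, and Acadm was 0.802 and 0.546 in R1 and 0.847 and 0.589 in R2. Acadl also fell, from 1.61 to 1.34 in R1 and from 1.86 to 1.49 in R2. Cpt1a went the other way, from 0.665 to 0.811 in R1 and from 0.728 to 0.856 in R2. So did Hadha, from 0.740 to 0.986 and from 0.751 to 0.868, and Bdh1, from 0.105 to 0.139 and from 0.0744 to 0.151. For these rises, counting intervals of the lowest and highest group overlapped for Cpt1a in both mice, Hadha in R2 and Bdh1 in R1. Bdh1 in R1 rested on 68 and 42 UMIs and was highest, at 0.160, in a group between them. Cpt2 and Ppara differed in direction between the mice. Median depth moved with these groups (11439 UMIs in the lowest and 4706 in the highest for R1, 10866 and 6005 for R2), and its part in the differences was not tested.

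**Figure D2:**
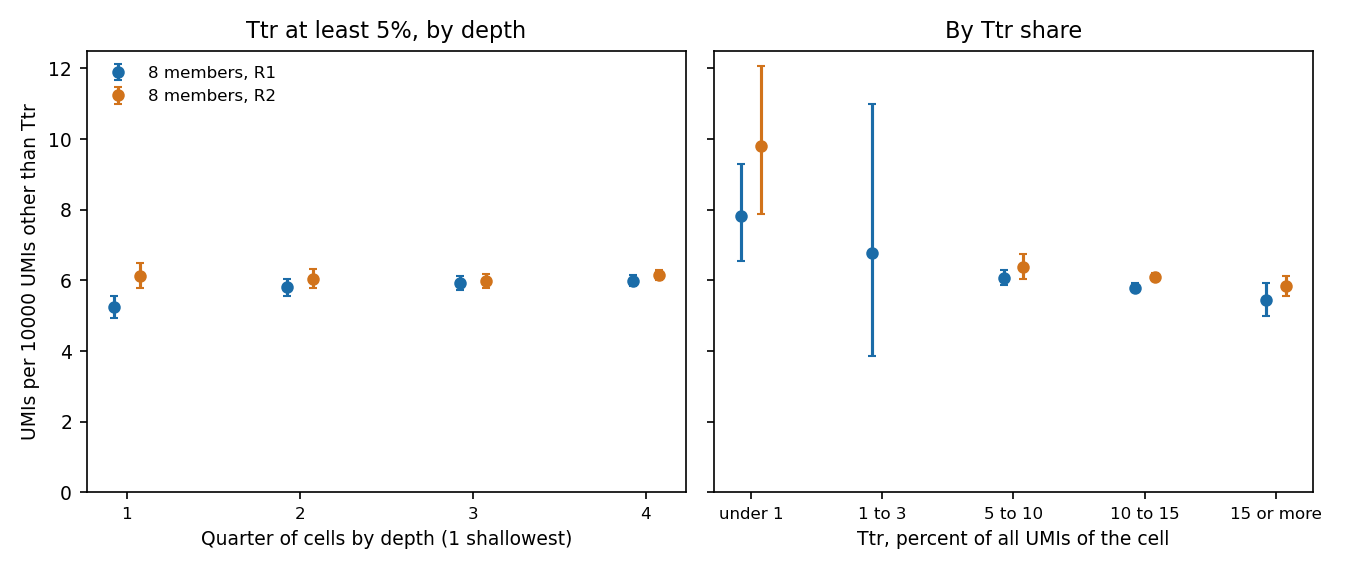
UMIs of the 8 members together per 10000 UMIs other than Ttr, in R1 (blue) and R2 (orange), by 4 equal groups of depth within the Ttr-high class (left) and by the Ttr share of the cell (right). Bars are exact 95% Poisson intervals, and R2 had no cell with 1 to 3% Ttr. In Ttr-high cells the members stay between 5.24 and 6.38, and in cells with under 1% Ttr they are at 7.83 in R1 and 9.81 in R2.

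Measured correlations among the members from cell to cell were very weak, at counts too sparse to show whether the genes vary together. Even Acadl averaged only 0.268 UMIs per cell in R1 and 0.329 in R2 after thinning to 2000 UMIs. Over 28 pairs in Ttr-high cells thinned to 2000 UMIs, the median Pearson correlation was 0.0031 in R1 (2581 cells) and 0.0021 in R2 (2828 cells), and no pair passed 0.1 in either direction. The highest pair in both mice was Cpt1a with Hadha, at 0.045 and 0.052. Hadha and Hadhb, which are transcribed from the shared interval shown above, gave -0.0046 and -0.0074. The cells of a mouse share a library and, after thinning, a depth, and in sparse counts a correlation of this size is no finding. Genes with the most similar pattern were as weakly related. Acadm was closest to Rrh, an RPE opsin, at 0.063 and 0.074, and Hadhb was closest to Ctsd, the lysosomal protease cathepsin D, at 0.056 and 0.073, and to Rgr, another RPE opsin, at 0.068 and 0.055, among 2263 genes with at least 0.5 UMIs per 10000.

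**Figure D3:**
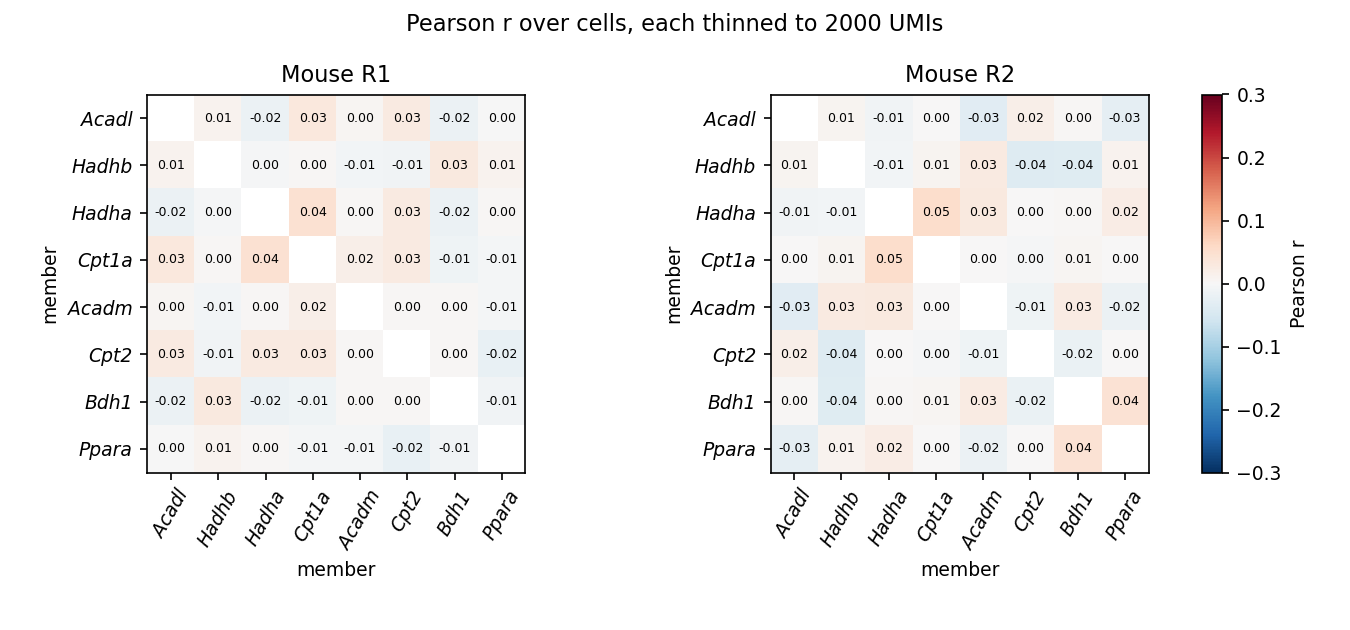
Pearson correlation over Ttr-high cells of log(1 + UMIs) for each pair of members after thinning to 2000 UMIs per cell, in R1 (2581 cells) and R2 (2828 cells). Colour runs from -0.3 to 0.3, and the highest value is that of Cpt1a and Hadha, 0.045 and 0.052.

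The variance of the thinned UMIs divided by their mean was between 1.10 and 1.33 for the members in R1 and between 1.202 and 1.47 in R2, where a value of 1 is given by counting alone. Genes with a like mean gave medians of 1.14 to 1.23 in R1 and 1.22 to 1.38 in R2. Hadhb was the steadiest of the abundant members relative to such genes, with 1.15 against 1.23 in R1 and 1.22 against 1.37 in R2. At this depth no member lay above the 90th percentile of genes with a like mean in either mouse. At 6000 UMIs, chosen after seeing the data, Cpt1a in R2 did, at 1.85 against 1.80, and in R1 it was at 1.56 against 1.74.

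Turning to cells with little Ttr, 147 UMIs of the members were found in 59 cells of R1 and 89 in 19 cells of R2. Per 10000 UMIs other than Ttr, their summed level was 7.70 (6.50 to 9.05) in Ttr-low cells and 5.86 (5.75 to 5.96) in Ttr-high cells of R1, and 9.81 (7.88 to 12.1) and 6.08 (5.98 to 6.18) in R2. The ratio was 1.31 (1.11 to 1.55) in R1 and 1.61 (1.29 to 1.99) in R2. These ratios divide by plain totals of UMIs other than Ttr. The scaling factors of the test below were 1.18 and 0.832 for Ttr-low and Ttr-high totals of R1, and 1.29 and 0.792 for R2. With totals so scaled, neither rise remains. In R2 a single cell with 13692 UMIs held 24 of the 89, and without it the level was 8.43. After thinning to 2000 UMIs, any member was found in 74.6% of Ttr-low cells of R1 (61.6 to 85.02) and 84.2% of R2 (60.4 to 96.6).

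On plain totals, Acadm exceeded its Ttr-high level beyond counting error in both mice. It had 24 UMIs in Ttr-low cells of R1 and 18 in R2, or 1.26 and 1.98 per 10000, against 0.677 and 0.727 in Ttr-high cells. The ratio was 1.86 (1.19 to 2.77) and 2.73 (1.61 to 4.32), and these counting intervals lay above 1 in both mice for Acadm alone among the 8. In R2, 7 of the 18 UMIs came from the deepest cell. The test below, on scaled totals, gave Acadm a log2 fold change of 0.57 (-0.29 to 1.43).

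For Acadl, the ratio was 1.19 (0.825 to 1.67) in R1, from 34 UMIs, and 1.98 (1.33 to 2.83) in R2, from 30. For Hadhb it was 1.73 (1.26 to 2.33), from 44 UMIs, and 1.05 (0.558 to 1.80), from 13. For Hadha, the other subunit of the trifunctional protein, it was 0.993 (0.566 to 1.62), from 16 UMIs, and 1.11 (0.477 to 2.18), from 8. For each of these 3 genes the interval includes 1 in at least 1 mouse.

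For the carnitine palmitoyltransferases, the mice gave ratios on opposite sides of 1. Cpt1a was at 0.707 of its Ttr-high level in R1 (0.338 to 1.30), from 10 UMIs, and at 2.23 (1.25 to 3.69) in R2, from 15 UMIs of which 9 lay in the deepest cell. Cpt2 was at 1.18 (0.643 to 1.99) in R1, from 14 UMIs, and 0.499 (0.103 to 1.46) in R2, from 3. Bdh1 had 4 and 2 UMIs, where 2.53 and 0.902 correspond to the Ttr-high level, and Ppara had 1 and 0, so that for these genes no change was detectable at this depth.

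**Figure D4:**
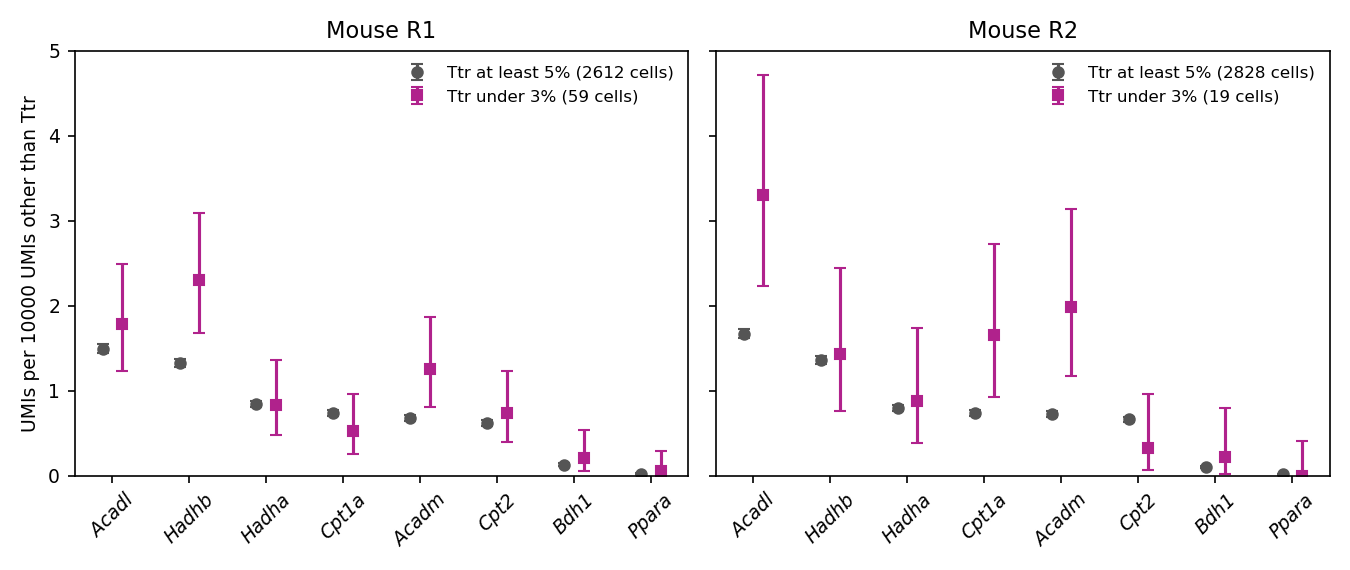
UMIs of each member per 10000 UMIs other than Ttr in Ttr-high cells (grey circles) and Ttr-low cells (purple squares) of R1 and R2, with exact 95% Poisson intervals. Acadm lies higher in Ttr-low cells of both mice (1.26 and 1.98 against 0.677 and 0.727), and the Ttr-low intervals are wide because they rest on 59 and 19 cells.

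Replication was by mouse, and the change was tested on UMIs summed per mouse and class with edgeR's quasi-likelihood test, with the mouse as a block and adjustment over all 11468 genes tested. Of these genes, 10.8% passed an adjusted p of 0.05, 4.13% as higher and 6.68% as lower in Ttr-low cells. All 8 members entered the test and 0 passed, 0 also had an unadjusted p under 0.05, and DESeq2, which called 6.88% of 16611 genes, called 0 of the 8. With 8 members, 0 calls lies near that background. The log2 fold change was 0.57 for Acadm (95% interval -0.29 to 1.43, adjusted p = 0.56), 0.02 for Acadl (-0.70 to 0.74, 0.98), -0.08 for Hadhb (-0.85 to 0.68, 0.95) and -0.23 for Cpt1a (-1.19 to 0.73, 0.86). It was -0.52 for Hadha (-1.48 to 0.44, adjusted p = 0.67), -0.75 for Cpt2 (-1.86 to 0.36, 0.55) and 0.28 for Bdh1 (-1.75 to 2.31, 0.93). Changes within these bounds cannot be told apart from none at this depth. Without the deepest Ttr-low cell of each mouse, an alternative chosen after seeing the data, Acadm was at 0.38 (adjusted p = 0.78) and Cpt1a at -0.76 (adjusted p = 0.58).

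The sign of several members changed with the scaling, and for some also under other settings, listed in the last section. The trimmed mean of M-values (TMM) used by edgeR placed the median of all genes at -0.38 and the median of the 8 members at -0.03 on the log2 scale, whereas plain totals placed them at 0.21 and 0.57. In both, 6 of 8 members lay above the median of all genes. With DESeq2, run on 16611 genes without a filter on low counts, 2 of 8 did, with a median of 0.05 for the members and 0.26 for all genes. Without that filter, edgeR with TMM placed the median of all genes at -0.91, with 8 of 8 members above it. The DESeq2 values thus differ from the main test in the set of genes as well as in scaling. With plain totals, Acadm passed as higher (log2 fold change 1.17, adjusted p = 0.046, over 14 alternatives 0.046 to 0.78), against 7.67% of all genes called higher, and Cpt1a, Hadha and Hadhb turned positive.

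Markers of fibroblasts, microglia and ciliary epithelium were higher in Ttr-low cells. Fibroblast markers reached 31.1 and 22.0 UMIs per 10000 against 0.0234 and 0.102 in Ttr-high cells, with 3 of 59 and 2 of 19 cells holding 3 or more of 6 markers. Microglia or macrophage markers reached 9.06 and 11.7 against 0.175 and 0.0273, with 2 cells and 1 cell holding 3 or more of 8, while P2ry12 was at 0. Ciliary epithelium markers reached 8.59 and 8.48 against 0.401 and 0.383, with 2 and 4 cells holding 3 or more of 8. Of the UMIs of this list in Ttr-low cells, Slc4a4 alone gave 122 of 164 in R1 and 34 of 77 in R2. Rod markers were at 2 and 0 UMIs, and no Ttr-low cell held 3 markers of endothelial cells, pericytes or choroidal melanocytes. Melanocyte markers were lower, at 0.681 and 0.331 against 0.865 and 0.784. Endothelial markers were at 0.314 and 0.110 against 0.167 and 0.138, and pericyte markers at 0.943 and 0.331 against 0.363 and 0.369. The Muller glia list, which shares Rlbp1 with the RPE list, was at 246 and 310 against 362 and 348. Within it, Glul (19.7 and 34.5 against 13.3 and 12.9) and Vim (3.19 and 6.94 against 0.638 and 0.836) were higher. So were Slc1a3 (0.314 and 0.882 against 0.00526 and 0.00427) and Aqp4 (0.105 and 0.441 against 0 and 0.000853). These rest on 6 and 8 UMIs of Slc1a3 and 2 and 4 of Aqp4 in Ttr-low cells. Clu (44.9 and 51.3 against 95.04 and 95.03) and Rlbp1 (5.18 and 4.297 against 45.7 and 49.8) were lower. Apoe was lower in R1 (172 against 208) and higher in R2 (212 against 190). In the 5 and 3 cells with 3 or more markers of fibroblasts or microglia, the members had 8 UMIs and 1 UMI. In the 44 and 11 Ttr-low cells with both Pax6 and Dkk3, the members were at 8.09 (6.70 to 9.68) and 12.1 (9.58 to 15.1) per 10000, and in the remaining 15 and 8 at 6.38 (4.24 to 9.22) and 4.17 (2.08 to 7.47). Acadm was at 1.56 and 2.33 in the former. The deepest Ttr-low cell of R2 was among those 11 and held 24 of their 78 UMIs of the members and 7 of their 15 of Acadm. All these levels divide by plain totals. Median mitochondrial share was 2.57% and 3.35% in Ttr-low and 1.30% and 1.27% in Ttr-high cells, and its part in these levels was not tested.

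Further genes of fatty acid and ketone metabolism were counted from 10 lists. Of these 74 genes, 61 were tested, and 1 rose and 17 fell in Ttr-low cells, where 4.13% of all genes rose and 6.68% fell, with a median log2 fold change of -0.86 against -0.38 for all genes. Of the 61, 7 had 0 UMIs in Ttr-low cells of both mice, and over the other 54 the median was -0.66. With plain totals 5 rose and 15 fell, against 7.67% and 4.04% of all genes. All 4 tested genes of monocarboxylate transport, which carries ketone bodies and lactate across the membrane, fell, with log2 fold changes of -5.49 for Slc16a8, -3.99 for Slc16a1 and -2.67 for Bsg, the chaperone of these carriers. Slc16a6 had 0 UMIs in Ttr-low cells of R1, where a floor of 3 UMIs made it at least 4.13-fold lower, and 1 UMI in R2. The sizes of these falls changed with the subtraction of ambient RNA, which is RNA free in the droplets. With 10% subtracted, the 31 and 6 UMIs of Slc16a8 in Ttr-low cells became 0 in both mice, the 17 and 4 of Slc16a1 became 4 and 0, and Bsg was at -3.25, whereas no member moved by more than 0.14. Acat1, which encodes a mitochondrial acetoacetyl-CoA thiolase, was at 0.75 (adjusted p = 0.14) and passed in 4 of 14 alternatives.

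An enzyme of ketone body use went the other way from the transport genes. Oxct1, which encodes the enzyme that activates acetoacetate for oxidation, rose from 0.628 to 3.25 UMIs per 10000 in R1 and from 0.552 to 3.09 in R2 (log2 fold change 1.84, SE 0.38, adjusted p = 4.24e-05). It was the single gene of the lists that rose in the main test, with TMM and the mouse as a block. Without the block 5 rose, as with plain totals. With TMM and the block kept, 2 rose without the mitochondrial limit. With Ttr-high cells of like depth, chosen after seeing the data, 3 rose. Bdh1, which works in either direction of the beta-hydroxybutyrate step, had too few UMIs to be placed beside Oxct1.

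**Figure D5:**
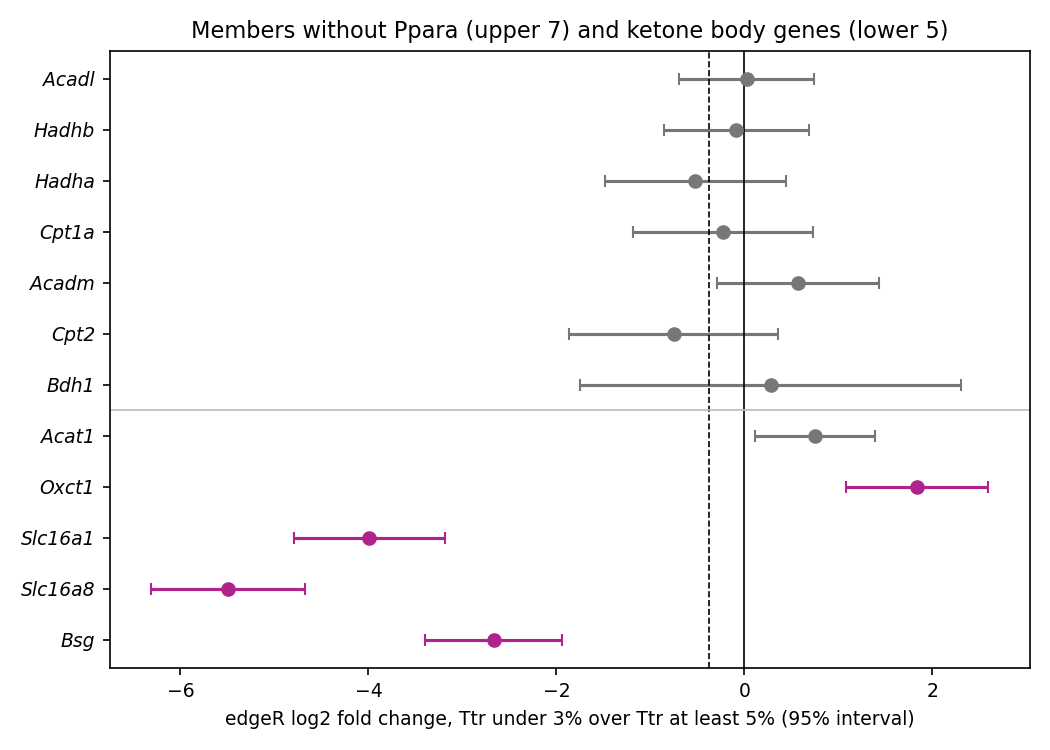
edgeR log2 fold change in Ttr-low over Ttr-high cells, with 95% intervals, for 7 members (Ppara, with 1 UMI and 0 UMIs in Ttr-low cells, is left out) and 5 genes of ketone bodies and their transport. Purple marks genes past an adjusted p of 0.05, the dashed line is the median of all genes (-0.38), and each member's interval includes 0, whereas Slc16a8 is at -5.49 and Oxct1 at 1.84.

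Within oxidation itself, 3 of 13 other mitochondrial enzymes fell, beside the 6.68% of all genes, among them Eci1 (-2.14), an isomerase for unsaturated fatty acids. Acadvl, the very-long-chain dehydrogenase, was at -0.92 (adjusted p = 0.10), Hadh at -0.71 (0.33) and Acaa2 at -0.28 (0.75). None of the 4 tested genes of the carnitine shuttle passed, with Slc25a20, the inner membrane carrier, at -0.52 (adjusted p = 0.77). Of the genes of activation and uptake, Acsl6 (-3.76) and Slc27a1 (-3.26) fell (-5.33 and -4.18 with ambient RNA subtracted), and of peroxisomal oxidation Abcd3 (-2.14) was among 2 that fell. Among nuclear receptors and coactivators 0 of 8 tested passed, with Ppargc1a at 1.17 (adjusted p = 0.27). Genes known as PPARA targets in other tissues fell in 3 of 6 tested, namely Angptl4 (-3.78, or -5.69 with ambient RNA subtracted), Plin2 (-2.61) and Slc25a42. Slc25a42 had 0 UMIs in Ttr-low cells of both mice, where 5.74 and 2.51 correspond to the Ttr-high level. The rest of the 6 had fold changes above 0 and did not pass. These were Ucp2 at 0.58 (adjusted p = 0.33), Txnip at 1.54 (0.30) and Pdk4 at 0.33 (0.97). Pdk4 had 1 UMI and 0 UMIs in Ttr-low cells. Of the other genes that fell, 5 did so by 0.96 to 2.07 on the log2 scale, and the rest are not reported here.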

How the data were processed

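RPE cells of 2 mice were measured in 1 library each. Per the labels and the study's methods, the authors processed the reads with bcl2fastq 2.20.0.422 and Cell Ranger 1.2.0 against GRCm38 (mm10) and deposited UMI counts per gene and cell, without normalization. The version of the 10x chemistry differs between the labels and the study.

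Python 3.11.15, R 4.3.3, edgeR 4.0.16 and DESeq2 1.42.0 were used. Cells were kept with 500 genes or more and at most 5% mitochondrial UMIs. Of these, the 4% whose neighbours were most often artificial doublets were removed. Ambient RNA was left in; taking out 10% was tried. The limits of 3% and 5% Ttr define the classes. Ttr was left out of the tested table and its totals. UMIs were summed per mouse and class (4 libraries), filtered with filterByExpr, scaled by TMM and tested with edgeR's quasi-likelihood test, with the mouse as a block because both sums come from the same animal, and Benjamini-Hochberg adjustment at 0.05. The test was checked on simulated data, where abundant genes were changed by 1, 2 or 4 on the log2 scale. It missed all changes of 1 and most changes of 2, and recovered most changes of 4. The median was below 0 also with no gene changed. R1 and R2 are separate animals, with 1 library each, so p-values rest on 2 mice. Intervals are exact (Poisson, Clopper-Pearson, conditional binomial for ratios) at 95% and cover counting error.

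The members and the gene lists were chosen with earlier results of these data known. Some of the named pathway genes are not reported here. The text names all members, a set of pathway genes and, of the other listed genes past the threshold in the same direction in both mice, the 12 with the largest fold change. For likeness, the 5 genes with the highest lower value of the 2 mice's correlations were ranked.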

Additional observations from a re-analysis of the deposited data

Results flagged for a closer look

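Members were also found in the cells left out for more than 5% mitochondrial UMIs, which entered no comparison other than the alternative without that limit. Of 58 such cells of R1 and 28 of R2, 50 and 26 had Ttr at 5% of UMIs or more. In these 50 cells of R1 the 8 members had 50 UMIs, or 3.87 per 10000 UMIs other than Ttr (2.87 to 5.10). In the 26 cells of R2 they had 53 UMIs, or 6.46 (4.84 to 8.45). Both lie above the limit that a count of 0 allows, and no control samples exist. Kept Ttr-high cells were at 5.86 (5.75 to 5.96) in R1, above the R1 interval, and at 6.08 (5.98 to 6.18) in R2. Acadl was the most abundant of them in R2, with 30 of the 53 UMIs, and Hadha in R1, with 13 of the 50.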

How the results depend on the processing

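Fold changes rest on 59 and 19 Ttr-low cells and 2 mice. Without the replicate block, 2300 genes passed in place of 1240, with 0 members in both, and with only Ttr-low cells holding Pax6 and Dkk3, chosen after seeing the data, 767 passed. Plain totals moved the share of higher calls among all calls from 38.2% to 65.5% and gave 1 member called in place of 0; DESeq2 gave 63.9%. The other 13 alternatives called 0 members, and pathway calls stayed between 14 and 27 around 18. The log2 fold changes that turned sign, none of them a call, were as follows. With plain totals, Cpt1a was at 0.37, Hadha at 0.069, Hadhb at 0.51, Acaa2 at 0.32 and Slc25a20 at 0.056. With Ttr-high cells of like depth, Cpt1a was at 0.058, Hadhb at 0.30 and Acaa2 at 0.060. Acadl was at -0.011 without the replicate block and -0.038 without a filter on low counts. Hadhb was at 0.063 without the mitochondrial limit, 0.10 without the cells holding 3 or more markers of fibroblasts, microglia, endothelial cells, pericytes, melanocytes or rods (cells with ciliary epithelium markers stayed in) and 0.055 in cells with Pax6 and Dkk3. The cause was not tested. With 1 mouse left out there is no residual spread, so only the ratio within the other mouse is given above, with no test. The summed level was 5.19 to 5.30 with either mouse left out, and the mean of 5.25 moved to between 5.19 and 5.26 under 3 alternatives. The share of cells with any member was 63.9% (63.5% to 64.3% with either mouse left out) and 89.5% without thinning, and the median correlation was 0.0026 (0.0021 to 0.0031), 0.017 without thinning and 0.0018 at 6000 UMIs, the last chosen after seeing the data.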
